A study of Mus musculus with 4 samples.

Results

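The chemokine genes Ccl17 and Ccl22 and the chemokine receptor genes Ccr4 and Ccr7 were examined, as 4 of the 32285 genes counted, in single-cell RNA-seq of leukocytes from mouse hindpaws. They were chosen by symbol from earlier results of these data, on their levels between libraries and cell classes, so those levels are given as a description. Male Leprdb/db mice (DB; C57BLKS/J-Dock7m +/+ Leprdb), a model of type 2 diabetes in which the leptin receptor does not work, were compared with LeprWT/WT littermates (WT) at 12 and 21 weeks of age. Both uninjured hindpaws were digested with collagenase, live CD45+ cells (CD45 marks leukocytes) were sorted, and the cells of 2 or 3 mice were pooled into 1 droplet library per condition, called 12-week-WT and 12-week-DB for the younger mice and, for the older ones, 21-week-WT beside 21-week-DB. Where 4 values stand in a row, they are given in that order. Each value below counts transcripts by unique molecular identifiers (UMIs), and a level is the UMIs of a gene per 1000000 UMIs (CPM) of the same cells. With 1 library per condition, differences between conditions could not be set against a spread between replicates and were not tested. Every interval given is an exact 95% interval and covers counting error only.

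CCL17 and CCL22 are chemokines released mainly by dendritic cells, the antigen-presenting cells of skin, and by some macrophages. Both bind CCR4, a receptor carried by skin-homing T cells, T helper type 2 cells and regulatory T cells. CCR7 binds other chemokines, CCL19 and CCL21, and guides dendritic cells and naive or recirculating lymphocytes into lymphatic vessels and lymph nodes. Within dendritic cells, CCR7 and CCL22 are known to rise together when the cells mature.

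The ligand genes are neighbours on mouse chromosome 8. In GENCODE M21 on GRCm38 (mm10), Ccl22 lay at chr8:94745590-94751699 and Ccl17 at chr8:94810453-94812036, both on the plus strand, with 58753 bases between them. The receptor genes were elsewhere, Ccr4 at chr9:114490316-114504916 and Ccr7 at chr11:99144196-99155077, both on the minus strand. The stretches before the starts of the ligand genes are printed because these 2 genes, side by side in the genome, differed between the libraries to unlike degrees. They were taken from the RefSeq promoter table (GRCm38.p6), the plus strand of chr8:94810203-94810452 for Ccl17 and of chr8:94745434-94745589 for Ccl22, and capitals mark the motif matches described next.
Ccl17: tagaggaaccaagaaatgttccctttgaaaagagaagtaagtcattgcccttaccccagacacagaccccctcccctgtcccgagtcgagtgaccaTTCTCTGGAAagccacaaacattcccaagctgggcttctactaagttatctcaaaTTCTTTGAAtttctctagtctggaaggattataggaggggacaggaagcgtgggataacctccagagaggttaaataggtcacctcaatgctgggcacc
Ccl22: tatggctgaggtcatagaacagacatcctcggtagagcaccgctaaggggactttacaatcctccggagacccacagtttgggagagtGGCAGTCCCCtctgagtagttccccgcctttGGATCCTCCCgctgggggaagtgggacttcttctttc
Of 4 motifs searched on both strands in the 250 bases before each start, Ccl17 held the match TTCTCTGGAA at positions -154 to -145 from the start and the match TTCTTTGAA at positions -99 to -91. They match the palindrome that STAT factors bind, TTC and GAA spaced by 4 bases (STAT6-type) or by 3 (STAT5-type), which was found in 5.85% and 7.02% of 32851 promoters. Ccl22 held GGCAGTCCCC at positions -162 to -153 and GGATCCTCCC at positions -131 to -122, matches read on the other strand to an NF-kappaB-type motif, GGG and CC spaced by 5 bases, that 45.8% of the promoters held. The IRF-type motif, GAAA and GAAA spaced by 2 bases, which 2.98% of the promoters held, had no match before either gene, and none of the 4 motifs matched before Ccr4. Positions are counted from the RefSeq start, and the printed Ccl22 stretch ends where the GENCODE gene begins, before that start. Ccr7 was not in the table.

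The 4 libraries held 30793 barcodes, and 27800 of them passed the limits of 200 genes or more and 10% mitochondrial UMIs or fewer, between 5271 and 8707 per library, with medians of 5355 to 8000.5 UMIs. Each barcode was given a class from its own marker genes, none of which was a member. Dendritic cells, with any of 4 dendritic gates passed but not the macrophage gate, numbered 821, 670, 1272 and 297 (15.6%, 10.2%, 17.5% and 3.41% of barcodes). T cells numbered 826, 1634, 1774 and 2677 (15.7%, 24.9%, 24.4% and 30.7%). The gates held their defining markers: the summed level of 8 type 2 conventional dendritic cell (cDC2) markers was 1700.4 to 1922 CPM in the cDC2 gate, where 3 T cell markers summed to 2.67 to 5.73 CPM and 9 macrophage markers to 802 to 1146 CPM. The 21-week-DB library stood apart, since 6 of 33 clusters drew at least 80% of their cells from it and held 57.4% of its cells, and no other library had such a cluster. The 21-week libraries shared 146 barcode sequences and the other pairs 5 to 38. Both 12-week files name another Cell Ranger version than both 21-week files, so age and software cannot be told apart.

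Ccl17 and Ccl22 were mainly dendritic cell transcripts, Ccr4 was mainly a T cell transcript, and Ccr7 was found in dendritic cells, B cells and T cells. Over all libraries, dendritic cells held 72.0% of the 46138 Ccl17 UMIs and 76.2% of the 9607 Ccl22 UMIs, while macrophages held 7.85% and 4.11%. Barcodes that no gate named held 12.9% and 12.6%, more than macrophages, and barcodes with mixed markers 5.14% and 5.09%. The unnamed share differed by library, at 11.7%, 20.3%, 10.3% and 14.9% for Ccl17 and at 25.3%, 19.3%, 5.11% and 0.752% for Ccl22. For Ccl22, 45.4% of the UMIs came from the few mature dendritic cells, gated on Fscn1, an actin-bundling protein of migrating dendritic cells, with other maturation genes. T cells held 79.0% of the 1122 Ccr4 UMIs. Dendritic cells held 47.1%, T cells 17.9% and B cells 12.8% of the 9747 Ccr7 UMIs. The plot of levels by class and library shows this division of ligand and receptor genes between cell types.

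**Figure D1:**
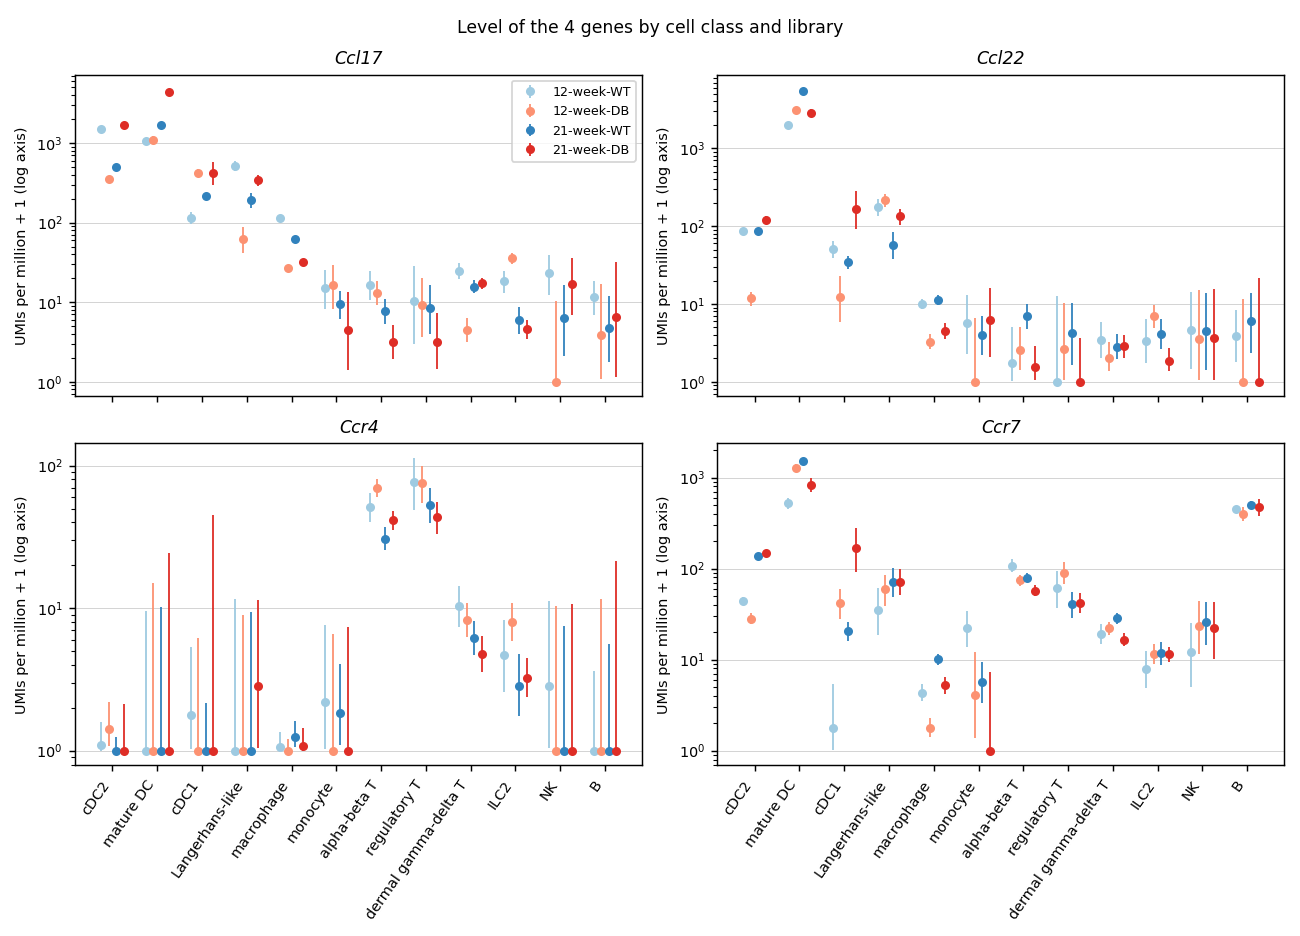
Level of each gene (CPM + 1, log axis) in 12 cell classes, with 1 point per library and exact 95% Poisson intervals. Ccl17 and Ccl22 are high in the dendritic classes and Ccr4 in alpha-beta and regulatory T cells, while Ccr7 is high in mature dendritic cells and in B cells, where it lies between 398 and 495 CPM.

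Ccl17, which encodes a ligand of CCR4, was at 1288 CPM (interval 1268 to 1309) in the dendritic cells of WT and at 361 CPM (349 to 374) in those of DB at 12 weeks. At 21 weeks it was at 469.8 CPM (460.0 to 479.8) in WT and at 1579.8 CPM (1541 to 1619) in DB. The order of the libraries was thus turned round between the ages, with DB below WT at 12 weeks and above WT at 21 weeks. At 12 weeks the level was 3.57-fold lower in DB (log2 ratio -1.83, -1.89 to -1.78), and in dendritic cells 1.31% of 10612 genes with at least 50 UMIs were at least 2-fold lower. At 21 weeks it was 3.36-fold higher in DB (log2 ratio 1.75, 1.70 to 1.80), against 5.92% of 10455 genes at least 2-fold higher. From 12 to 21 weeks the level was 2.74-fold lower in WT (4.49% of genes at least 2-fold lower) and 4.38-fold higher in DB (3.44% at least 2-fold higher). The contrasts share libraries, and the 4 genes were picked with them in view, so the background shares are for scale only.

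Both the share of dendritic cells with Ccl17 and the UMIs per positive cell differed. A Ccl17 UMI was found in 42.0%, 34.9%, 27.5% and 55.9% of the dendritic cells of the 4 libraries. With each cell thinned to 2000 UMIs, which left out 0, 2, 1 and 0 shallower cells, these shares were 29.7%, 17.2%, 14.2% and 30.6%, and 12-week-WT and 21-week-DB again stood above the others. The positive cells held a mean of 43.2, 13.5, 25.0 and 38.6 Ccl17 UMIs, with medians of 13, 4, 4 and 6, so by the median 12-week-WT alone stood apart. The 10 highest dendritic cells held 20.2%, 33.7%, 34.7% and 52.3% of these UMIs, and without them the levels were 1049, 245, 310.2 and 804 CPM, again lower in DB at 12 weeks and higher in DB at 21 weeks. In all kept barcodes, where the number of dendritic cells also counts, Ccl17 was at 433, 95.5, 177 and 160.0 CPM. The 12-week difference was then 4.54-fold (2.99% of genes at least 2-fold lower), and at 21 weeks DB was 1.11-fold lower instead of higher. When each class was weighted as in the WT library of the same age, the log2 ratio was -1.81 at 12 weeks and 1.34 at 21 weeks, close to that of the dendritic cells. In 21-week-DB dendritic cells were 3.41% of the barcodes, and 10 of the 297 held over 50% of their Ccl17 UMIs. These 10 were a larger part of that library's dendritic cells than in the other libraries. The highest 1% of dendritic cells held 18.7%, 26.4%, 40.4% and 24.6% of the Ccl17 UMIs, most in 21-week-WT.

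The difference was not even over the clusters that held the dendritic cells. Cluster 14, led by Mgl2, Cd209a and Cd209d, the lectins of resting dermal dendritic cells, was at 244, 319.8, 287 and 265 CPM of Ccl17 in the order above, highest in 12-week-DB, with 20 cells in 21-week-DB. Cluster 11, led by Ccl22, Ccr7, Il1b and Cd83, was at 1457, 479, 686 and 927 CPM. Cluster 15, led by Lpl, Anxa8 and Mmp12 and given no cell type name, was at 1579, 218, 1027 and 905 CPM, and 64.1%, 19.2%, 43.4% and 39.7% of its cells were positive. At 12 weeks the lower level in DB was therefore found in clusters 11 and 15 and not in cluster 14. Cluster 25, of cycling cells, was also lower in DB (701 CPM in WT, 339 in DB). The same held for cluster 4, named macrophage (654 and 154 CPM). Cluster 32, led by Il1b, Ccl17, Clec4e and Ptgs2, came from 21-week-DB alone, with 258 cells at 1484 CPM. Without it and the other clusters drawn mostly from 21-week-DB, the dendritic log2 ratio at 21 weeks was 1.59. That left few cells of 21-week-DB, with 31 Ccl17-positive and 24 Ccl17-negative cells in the cDC2 gate. Cells of the cDC2 gate followed the dendritic cells as a whole, at 1485, 348, 499.7 and 1676 CPM, but they lay in different clusters: cluster 14 held 38.5%, 44.7% and 40.7% of them in the first 3 libraries, and cluster 32 held 77.1% in 21-week-DB. At 12 weeks the clusters held like shares of the gate, 22.2% in WT and 18.8% in DB for cluster 11 and 21.8% and 22.0% for cluster 15. The gated cells of cluster 15 were at 2880.2 CPM in WT and 384 in DB, those of cluster 11 at 1376 and 357, and those of cluster 14 at 292 and 324. At 21 weeks the directions differed. The gated cells of cluster 11 were at 697 CPM in WT (294 cells) and 447 in DB (20 cells). Those of cluster 15 were at 1874 CPM in WT (63 cells) and 3028 in DB (13 cells). Cluster 32 and its library cannot be told apart. The 21-week value of the cDC2 gate (1.75 on the log2 scale, with 3.94% of genes at least 2-fold higher) thus compares cells of different clusters.

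**Figure D2:**
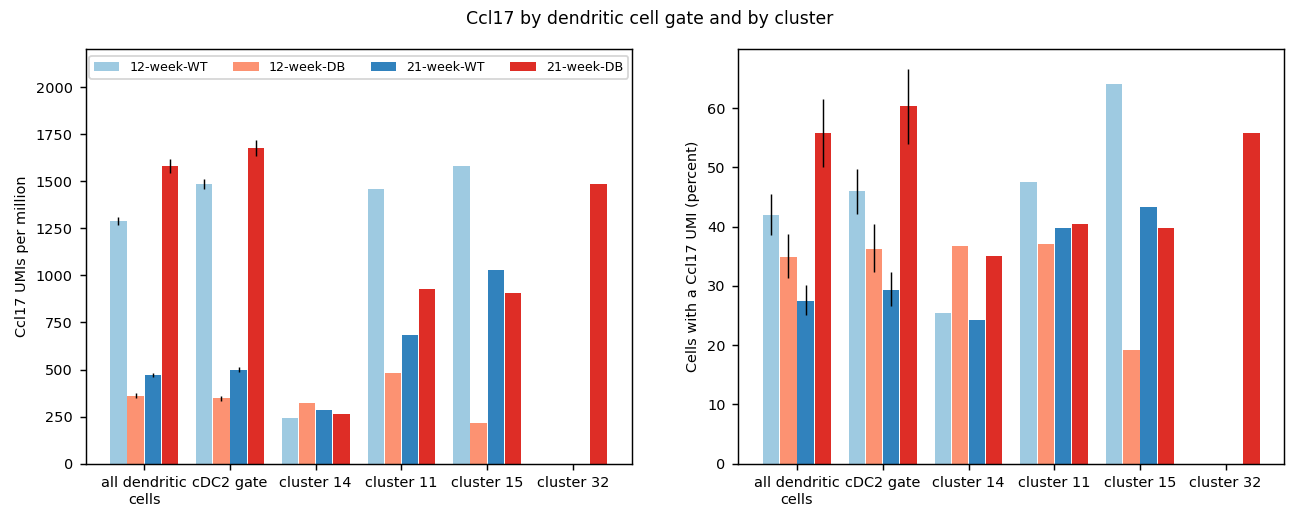
Ccl17 level (CPM, left) and percent of cells with a Ccl17 UMI (right) in all gated dendritic cells, in the cDC2 gate and in 4 whole clusters, by library; thin bars on the first 2 groups are exact 95% intervals. Cluster 14 stays between 244 and 319.8 CPM in all libraries, while 12-week-DB is lowest in clusters 11 and 15 and cluster 32 is present in 21-week-DB alone.

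Other dendritic classes were small. In Langerhans-like cells, the epidermal counterpart of dendritic cells (24, 40, 26 and 42 cells), Ccl17 was at 512, 60.3, 191 and 337 CPM, again lowest in 12-week-DB. They lay in different clusters, and the 512 CPM of 12-week-WT came with 3 cells of cluster 11 at 3426 CPM, against 42.5 CPM in its 12 cells of cluster 13 and 7.0 CPM in the 30 such cells of 12-week-DB. The 24 cells of 12-week-WT also held 1824 CPM of 6 summed neutrophil markers, against 11.3 to 21.5 CPM in the other libraries, and the part of this in the Ccl17 value was not tested. Type 1 conventional dendritic cells (cDC1; 95, 49, 195 and 7 cells) were at 113, 417, 216 and 419 CPM, higher in DB than in WT at both ages, but the clusters within the gate differed. In cluster 17, which held 74.7% and 65.3% of the gate at 12 weeks, Ccl17 was at 72.2 CPM in WT and at 17.6 in DB, and 6 cells of cluster 11 in 12-week-DB were at 829 CPM. At 21 weeks DB had 1 cell in cluster 17 and 2 in cluster 32, the latter at 999.7 CPM. Mature dendritic cells (32, 22, 26 and 8 cells) were at 1067, 1101, 1684 and 4398 CPM. Both classes were few in cells, and the cDC1 difference at 12 weeks depended on the clusters counted.

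Macrophages carried little Ccl17 per cell, at 113, 25.7, 60.9 and 31.0 CPM in 12.7%, 3.86%, 6.38% and 6.95% of 1563, 1684, 1505 and 1353 cells. At 12 weeks DB was 4.42-fold lower (3.0% of genes at least 2-fold lower), and at 21 weeks 1.96-fold lower. With classes taken from clusters the 21-week difference turned round, to a log2 ratio of 1.10. The 10 cells with the most Ccl17 held 57.7%, 79.3%, 68.9% and 69.8% of the macrophage UMIs, and the levels without them were 48.8, 5.36, 19.2 and 9.49 CPM. The macrophage-gated cells of cluster 15, 112 and 207 cells at 12 weeks, were at 709 CPM in WT and 63.2 in DB. T cells served as a background, though whether they make Ccl17 themselves was not tested. They held 29.0, 5.72, 15.0 and 9.57 CPM in 9.32%, 1.96%, 3.55% and 1.83% of cells. Their medians were 5357 to 6600.5 UMIs against 12265 to 13963 in dendritic cells. Type 2 innate lymphoid cells, not used as a background, held 37, 162, 19 and 33 Ccl17 UMIs in 295, 662, 506 and 1465 cells, most in 12-week-DB. The 90 natural killer (NK) cells of 12-week-WT held 22.1 CPM, and the 68 of 12-week-DB held none, which allows up to 7.56 CPM. Without their own 10 highest cells, T cells were at 12.1, 2.19, 4.07 and 2.43 CPM, below macrophages treated alike in each library, and the part of free RNA in these values was not tested.

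Ccl22, the gene of the other CCR4 ligand, followed a different course. In dendritic cells it was at 155, 115, 193 and 231 CPM, with 13.9%, 8.96%, 14.4% and 20.5% of the cells positive. The DB/WT log2 ratio was -0.44 (-0.55 to -0.32) at 12 weeks and 0.26 (0.16 to 0.37) at 21 weeks, in the same directions as Ccl17 and far smaller. With classes taken from clusters the 21-week value turned to -0.15. The 10 highest cells held 61.5%, 84.1%, 72.9% and 76.1% of these UMIs, up to 771 in 1 cell of 21-week-WT, and without them the levels were 60.5, 18.5, 52.6 and 58.3 CPM. Ccl22 was thus carried by few cells, and without the 10 highest 12-week-DB was the lowest library. These 10 were a larger part of the 297 cells of 21-week-DB than of the 1272 of 21-week-WT, so the trimmed levels are not on equal terms. The highest 1% of the cells held 58.4%, 77.4%, 76.9% and 40.7% of the UMIs, least in 21-week-DB.

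Mature dendritic cells held the highest Ccl22, at 2012, 3115, 5514 and 2878 CPM, with 50%, 59.1%, 76.9% and 100% of 32, 22, 26 and 8 cells positive. Their DB/WT log2 ratios, 0.63 at 12 weeks and -0.94 at 21 weeks, ran against those of the dendritic cells as a whole. The gate spanned different clusters, with 65.6%, 86.4%, 80.8% and 50% of its cells in cluster 11 and 8 cells of 12-week-WT in cluster 14 without a Ccl22 UMI. Its cells in cluster 11 were at 3635 CPM in WT and 3684 in DB at 12 weeks, nearly equal, and at 7346 and 6184 CPM at 21 weeks. In the cDC2 gate, Ccl22 was at 84.8, 10.8, 84.7 and 120.4 CPM. There 12-week-DB stood 7.87-fold below WT (log2 ratio -2.98, -3.33 to -2.64; 1.37% of genes at least 2-fold lower), on 79 UMIs in 559 cells. At 21 weeks the gate's log2 ratio was 0.51, but -0.31 with classes taken from clusters and -0.81 without the clusters drawn mostly from 21-week-DB. Over all kept barcodes Ccl22 was at 61.0, 25.0, 63.8 and 19.5 CPM, lower in DB at both ages (2.44-fold and 3.26-fold, where 2.99% and 5.05% of genes were at least 2-fold lower). Macrophages held 9.0, 2.27, 10.3 and 3.44 CPM. NK cells held 2.52 to 3.68 CPM, but on 2, 1, 2 and 1 UMIs, too few to compare the macrophage level with.

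**Figure D3:**
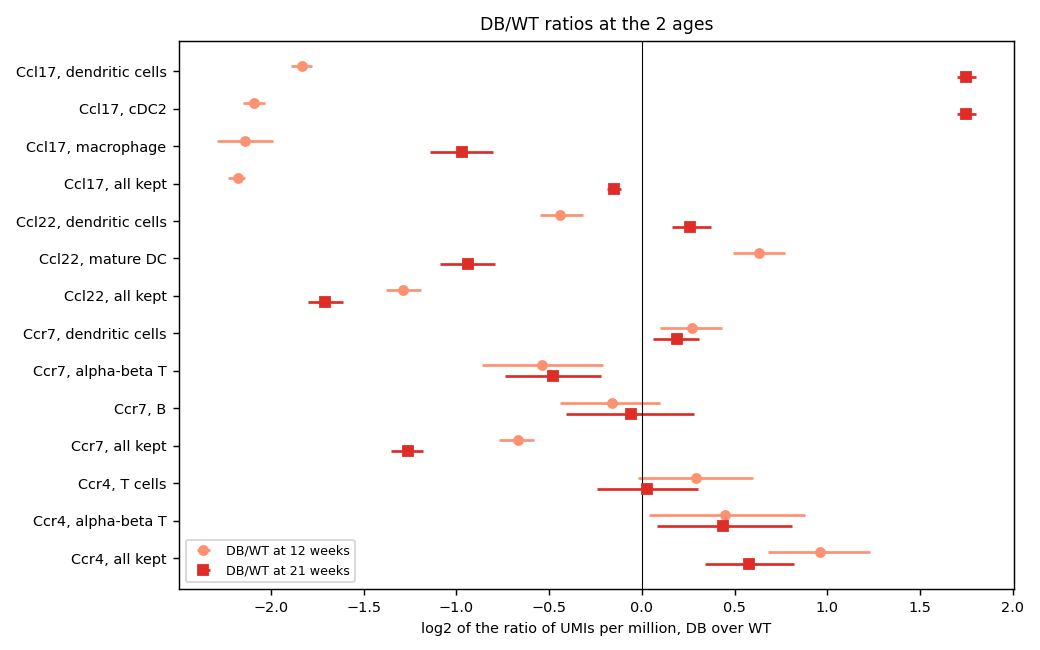
DB over WT ratio (log2 of CPM) of each gene in named cell classes and in all kept barcodes at 12 weeks (circles) and 21 weeks (squares), with exact 95% intervals for counting error. Ccl17 in dendritic cells lies at -1.83 and 1.75, on opposite sides of 0, whereas the intervals of Ccr7 in B cells and of Ccr4 in T cells include 0 at both ages.

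Ccr7, the receptor gene of migrating dendritic cells and lymphocytes, was higher at 21 than at 12 weeks in the dendritic cells of both genotypes. It was at 56.0, 67.3, 144 and 164 CPM, and 7.80%, 8.51%, 16.0% and 20.5% of the cells were positive (3.29%, 4.94%, 8.73% and 13.5% when thinned to 2000 UMIs). Both 21-week libraries thus stood above both 12-week libraries. The level was 2.58-fold higher at 21 weeks in WT, where 0.673% of 10993 genes were at least 2-fold higher, and 2.44-fold higher in DB, where 3.44% were. The DB/WT log2 ratios were 0.27 (0.10 to 0.43) at 12 weeks and 0.19 (0.06 to 0.31) at 21 weeks. Without the clusters drawn mostly from 21-week-DB the latter was -0.50, so its direction rested on them. The cDC2 gate, at 43.3, 27.3, 136 and 147 CPM, was lower in DB at 12 weeks (-0.67, -0.92 to -0.42), against the direction of all dendritic cells. In cluster 11, the cluster led by Ccl22 and Ccr7, the levels were 281, 319, 473 and 187 CPM, lowest in 21-week-DB, so the order by age was not that of this cluster. The mature dendritic cells were at 518, 1272, 1510.1 and 836 CPM, with 12-week-WT lowest.

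In the B cell gate the Ccr7 level differed little between the libraries, and in T cells it differed by subset. B cells held 445, 398, 495 and 475 CPM in 63.0%, 48.5%, 70.6% and 54.2% of 332, 103, 197 and 48 cells. The positive share was lower in DB at both ages. By level, the DB/WT log2 ratios, -0.16 (-0.44 to 0.10) and -0.06 (-0.41 to 0.28), were within counting error of 0. In cluster 21, named B, the levels were 472, 295, 468 and 405 CPM, lower in DB at both ages. All T cells together held 42.4, 41.6, 44.8 and 30.6 CPM, with log2 ratios of -0.03 (-0.26 to 0.21) at 12 weeks and -0.55 (-0.73 to -0.38) at 21 weeks. Alpha-beta T cells, gated on the T cell receptor gene Trac, held 106, 73.3, 78.4 and 56.3 CPM, lower in DB at both ages (-0.54 and -0.48). Regulatory T cells, gated on Foxp3, held 59.5, 88.9, 39.5 and 41.2 CPM, and dermal gamma-delta T cells 18.3, 21, 27.6 and 15.6 CPM. Over all kept barcodes Ccr7 was at 43.2, 27.1, 69.0 and 28.8 CPM. It was 1.60-fold lower in DB at 12 weeks and 2.40-fold lower at 21 weeks, but with the class weights of the WT library the log2 ratios were -0.06 and -0.16. The library-wide difference in Ccr7 was thus small once the shares of the classes, dendritic and B cells among them, were held equal.

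Ccr4, the receptor gene for both ligands, was at 23.0 CPM (19.2 to 27.3) in the T cells of WT and at 28.0 CPM (24.9 to 31.5) in those of DB at 12 weeks. At 21 weeks the levels were 15.9 CPM (13.8 to 18.2) in WT and 16.2 CPM (14.3 to 18.3) in DB. It was found in 11.7%, 10.4%, 8.29% and 6.57% of the cells. The levels were higher at 12 than at 21 weeks in both genotypes. The DB/WT log2 ratios in all T cells were 0.29 (-0.02 to 0.60) and 0.03 (-0.24 to 0.30), with intervals that include 0. Without the clusters drawn mostly from 21-week-DB, the DB/WT log2 ratio at 21 weeks was 1.09, higher in DB. The log2 ratio of 21 to 12 weeks in DB was then 0.28, higher at 21 weeks. Regulatory T cells were highest in each library, at 75.2, 74.0, 52.3 and 42.6 CPM, followed by alpha-beta T cells at 50.2, 68.6, 29.8 and 40.5 CPM. The counting intervals of these 2 classes overlapped in all libraries but 21-week-WT (38.7 to 69.2 against 24.5 to 35.9). Their positive shares were 32.2%, 21.1%, 20% and 16.2% and 24.1%, 24.6%, 14.1% and 15.8%. Dermal gamma-delta T cells were lower in every library, at 9.44, 7.30, 5.22 and 3.80 CPM, and type 2 innate lymphoid cells (ILC2) held 3.71, 7.03, 1.84 and 2.26 CPM. In alpha-beta T cells the DB/WT log2 ratio was 0.45 (0.04 to 0.88) at 12 weeks and 0.44 (0.08 to 0.81) at 21 weeks, with both intervals above 0. The direction differed between clusters. Cluster 1, led by Trac and Cd6, was at 83.2 CPM in WT and 75.1 in DB at 12 weeks and at 30.8 and 28.4 at 21 weeks. Cluster 2, led by Ctla4 and Tnfrsf4, was at 37.5 CPM in WT and 77.9 in DB at 12 weeks and at 48.5 and 75.8 at 21 weeks.

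Over all kept barcodes Ccr4 was at 3.38, 6.56, 4.03 and 6.03 CPM, 1.94-fold higher in DB at 12 weeks and 1.49-fold higher at 21 weeks. With the class weights of WT the log2 ratios were 0.39 and 0.08, where T cells were 15.7% and 24.9% of the 12-week barcodes. Cells of other lineages were near 0: B cells held no Ccr4 UMI in any library, and dendritic cells 2, 3, 0 and 1 UMIs. The Ccr4 of T cells was thus well above the level in classes not known to express it.

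Within dendritic cells, detection of one member went with detection of another. Ccl22 was detected in 20.9%, 14.1%, 29.1% and 26.5% of Ccl17-positive dendritic cells and in 8.82%, 6.19%, 8.79% and 13.0% of Ccl17-negative ones. For Ccr7-positive cells the share with Ccl22 was 48.4%, 42.1%, 40.4% and 45.9%, against 11%, 5.87%, 9.45% and 14% of Ccr7-negative cells. The share with Ccl17 was 57.8%, 42.1%, 42.4% and 59.0% against 40.7%, 34.3%, 24.7% and 55.1%. The gap between Ccr7-positive and Ccr7-negative cells was wider for Ccl22 than for Ccl17 in each library. Ccl17-positive cells were also deeper, with medians of 13788 to 16136 UMIs against 11416 to 13296 in Ccl17-negative cells, and the part of depth in these shares was not tested.

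Across classes, the genes most like Ccl17 over 49 class-by-library sums of 14 classes were Cd209d (Pearson's r = 0.91), Mgl2 (0.89), Alox15 (0.89), Cd209a (0.89) and Mmp12 (0.88). For Ccl22 they were Tspan33 (0.87), Adam23 (0.86), Cd209a (0.86), Ccl17 (0.85) and Lmo1 (0.85). Ccr4 was most like Cd6 and Cd5 (both 0.94), Ctla4 (0.93), A430093F15Rik (0.91) and Trac (0.91), all but the fourth T cell genes. Ccr7 had no close match over these sums, with Gm8369 and Aff3 (both 0.76), BE692007 (0.75), Cd200 (0.74) and Dtx1 (0.73). Sums of fewer than 50 cells were left out, so mature dendritic and Langerhans-like cells did not enter. The mature cells held 45.4% of the Ccl22 UMIs and 13.3% of the Ccr7 UMIs, so the likeness of these genes was measured without them. These coefficients were among 6795 genes and describe cell types that share libraries and depth.

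Of the other genes of the pathway, those of dendritic cell maturation differed most often between libraries. In dendritic cells none of 15 measured maturation and migration genes was at least 2-fold higher in DB at 12 weeks (background 1.01% of genes) and 3 were lower (background 1.31%), namely Il4i1 (18.2 against 37.5 CPM), Socs2 (9.35 against 29.5) and Pdcd1lg2 (5.70 against 13.0). At 21 weeks 7 of 17 were higher in DB (background 5.92%) and 1, Cd200, was lower (background 4.16%), with a median log2 ratio of 0.85. Among the 7 were Il12b, a chain of interleukins 12 and 23 (62.3 against 6.02 CPM), Ccl5 (221 against 56.4), the costimulatory gene Cd40 (70.5 against 23.4) and the ligand gene of PD-1, Cd274 (50.7 against 17.1). Of 8 measured cytokine and receptor genes known to act on Ccl17 and Ccl22, 1 differed at 21 weeks, Il7r, a chain of the receptor for TSLP (310.4 against 77.3 CPM), and none at 12 weeks. None of 8 transcription factors or the demethylase linked to them, Stat6, Irf4 and Kdm6b among them, differed 2-fold at either age. At 21 weeks these ratios compare cells of different clusters, since cluster 32, with Il12b among its leading genes, held 77.1% of the cDC2 gate in 21-week-DB and no cell of another library.

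The cytokines themselves came from other cells. Csf2, the gene of GM-CSF, was at 159, 163, 107 and 112 CPM in ILC2, against 0 to 1.71 CPM in dendritic cells. Il13 was at 370.1, 314, 427 and 593 CPM in ILC2 and Il4 at 10.7, 6.60, 7.35 and 17.7 CPM, both highest in 21-week-DB. Over all kept barcodes Il13 was at 27.4, 44.6, 43.0 and 141 CPM. Of the genes of the CCR7 ligands, Ccl19 was scarce, at 0.0735 to 0.252 CPM. Ccl21a, which has near-identical copies in the genome that share reads and is thus uncertain, was at 0.840, 32, 2.14 and 0 CPM. It was among the leading genes of cluster 23, named non-immune, so its level is not that of leukocytes alone. The scavenger receptor genes Ackr2 and Ackr4 were under 1 CPM in every library.

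The cells that carried a member were compared with those that did not, within each library, so that the 4 libraries served as replicates and the grouping gene was left out. Each adjusted p given for these comparisons is from edgeR's quasi-likelihood test with Benjamini-Hochberg adjustment, and changes are log2 with their standard errors. In the cDC2 gate 308, 203, 301 and 145 Ccl17-positive cells were set against 362, 356, 724 and 95 negative cells. Of 10445 genes, 352 (3.37%) were higher and 291 (2.79%) lower in the positive cells. Without the library as a block the counts were 2 and 3, without 12-week-WT they were 171 and 113, and without 21-week-WT they were 56 and 41.

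Ccl22 rose most among the named genes of the Ccl17-positive cells, at 143, 16.8, 202 and 174 CPM against 13.4, 6.51, 22.7 and 14.6 CPM (3.05 ± 0.22, adjusted p = 1.00e-04). It was higher within each library, although the 16.8 CPM of the 12-week-DB positive cells lay under the 22.7 of the 21-week-WT negative cells. AA467197 rose by 2.96 ± 0.27 (adjusted p = 2.97e-04) and Alox15, a lipoxygenase induced by type 2 cytokines, by 2.13 ± 0.16 (adjusted p = 1.00e-04). Edn1, the gene of endothelin, F11r, a junction protein, Anxa8, Lpl and Mfge8 also rose, by 1.47 to 2.38. Lpl lost its call without 12-week-WT, 21-week-WT or 21-week-DB (1.06 to 1.74, adjusted p = 0.0605 to 0.0674), and Mfge8, also a marker of the Langerhans-like gate, without 21-week-WT (2.06, adjusted p = 0.140). Ccr7 did not pass the test (0.20 ± 0.28, adjusted p = 0.725), with 40.7, 15.8, 222 and 150.1 CPM against 46.8, 35.4, 90.3 and 142 CPM. Thus Ccl22 rose with Ccl17 in these cells and Ccr7 was not shown to. Lpl, Anxa8 and AA467197 were also leading genes of cluster 15.

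Plac8 fell the most among genes that averaged 50 CPM or more, from 150.0, 47.7, 135 and 31.0 CPM in the negative cells to 19.3, 6.27, 18.3 and 0.459 CPM (-3.04 ± 0.18, adjusted p = 2.64e-05). Irf8, a transcription factor of type 1 dendritic cells and monocytes, fell by 2.15 (adjusted p = 1.75e-04), and Ighm, F13a1, Apoe, Bst2, Lst1 and Lyz1 fell by 1.08 to 1.88, of which Bst2 lost its call without 21-week-WT (-0.94, adjusted p = 0.0688). Irf8 is also a marker of the cDC1 gate, Plac8 and Lst1 belong to the monocyte markers, Apoe to the macrophage markers and Ighm to the B cell markers used for gating, and the part of such cells in the comparison was not tested. Of 11 maturation genes tested, 4 were higher, Socs2 (2.19), Il4i1 (1.53), Cd40 (0.93) and Cd80 (0.85), and none lower, with a median of 0.59 over the 11 against 0.00 over all genes. Without 21-week-WT, Il4i1 (1.70, adjusted p = 0.0765), Cd40 (0.86, adjusted p = 0.0828) and Il7r (0.59, adjusted p = 0.0658) lost their calls, and Cd80 kept its call without 12-week-DB alone (0.69 to 0.79 in the others, adjusted p = 0.106 to 0.209). Of 8 receptor chains tested, Il7r alone passed (0.59 ± 0.09, adjusted p = 0.00579), while Il4ra (0.38, adjusted p = 0.0919) and Csf2ra (0.27, adjusted p = 0.0790) did not. Of 8 factors, Irf4, which dermal dendritic cells need, alone passed (0.50 ± 0.12, adjusted p = 0.0406), and of the fits that left out a library it passed without 12-week-DB alone (0.33 to 0.55 in the others, adjusted p = 0.111 to 0.146). Dpp4, the enzyme that trims these chemokines, was lower (-1.22, adjusted p = 0.0204; -1.30 to -1.21 and adjusted p = 0.0529 to 0.104 without 21-week-WT or 21-week-DB).

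Ccr7-positive dendritic cells differed more widely. The comparison of 64, 57, 203 and 61 positive with 757, 613, 1069 and 236 negative cells gave 1075 higher (10.7%) and 446 lower genes (4.45%) of 10032. Dropping the library block gave 409 and 101, without 12-week-WT 752 and 242, without 12-week-DB 749 and 289, and without 21-week-WT 688 and 245. Ccl22 was at 1422, 1093, 984 and 802 CPM in positive and 45.1, 17.7, 27.7 and 55.7 CPM in negative cells (5.20 ± 0.27, adjusted p = 8.71e-07), with no overlap of the libraries. Ccl17 was at 2008, 703, 912 and 3082 CPM against 1226, 327, 378 and 1119 CPM (1.36 ± 0.12, adjusted p = 2.68e-05), higher in 4 of 4 libraries but with overlapping ranges. Both ligands thus rose in Ccr7-positive cells, Ccl22 the more.

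All 16 maturation genes tested were higher in Ccr7-positive cells, with a median of 2.74 against -0.03 over all genes. Fscn1 was at 346, 295, 83.7 and 80.7 CPM against 0.644 to 2.82 CPM, and Apol7c at 246, 195, 54.5 and 27.3 against 0.0650 to 2.58 CPM. Fscn1 and 7 more of the list defined the mature gate, which lies within these dendritic cells, so the comparison was repeated without mature cells, a choice made after seeing the data. It then gave 897 higher and 368 lower genes, with Ccl22 at 3.43 and Ccl17 at 1.11. In the first comparison, with mature cells included, Ccl5, a chemokine, rose by 4.69 ± 0.58. There Nr4a3, a nuclear receptor gene, rose by 2.63 ± 0.21 and Ramp3 by 2.59 ± 0.27. Receptor chains and factors moved with them in that comparison. Of 8 chains 5 rose (Csf2rb2, Csf2rb, Il7r, Il4ra and Il2rg, by 0.84 to 1.54). Of 8 factors 5 rose (Kdm6b, Relb, Stat5a, Nfkb2 and Irf4, by 0.90 to 1.79), and Relb is also a marker of the mature gate. Stat6 (0.16, adjusted p = 0.474) and Klf4 (0.06, adjusted p = 0.851) did not pass.

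Among genes that averaged 50 CPM or more, the largest fall in Ccr7-positive cells was that of Cx3cr1, the fractalkine receptor gene, which was at 19.5, 17.7, 11.5 and 7.34 CPM against 53.9, 55.7, 75.5 and 239 CPM (-2.52 ± 0.37, adjusted p = 6.85e-04). Retnla, Fn1, Ecm1, Pf4, Lyz1, Anxa8 and Cd36 fell by 1.41 to 1.65. Of these, Pf4 is a macrophage marker. The egress receptor S1pr1 (-2.63, adjusted p = 0.00213) and the monocyte chemokine receptor Ccr2 (-1.06, adjusted p = 3.30e-05) were the 2 homing genes that were lower, of 10 tested, and none was higher. Anxa8, raised in Ccl17-positive and lower in Ccr7-positive cells, moved in opposite directions in the 2 comparisons.

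**Figure D4:**
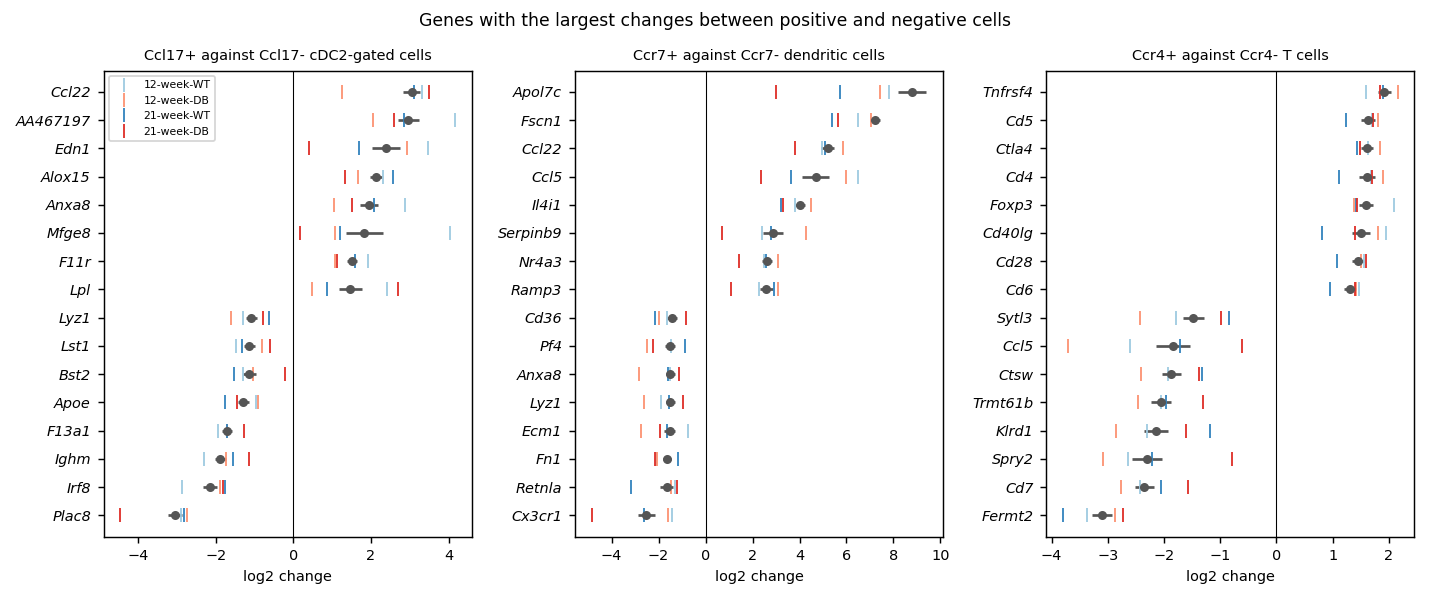
Log2 change of the 8 genes with the largest rises and falls between positive and negative cells in 3 comparisons; dots with bars are the edgeR estimate and its standard error, and ticks are the 4 libraries. Ccl22 is raised by 3.05 in Ccl17-positive cells of the cDC2 gate and by 5.20 in Ccr7-positive dendritic cells.

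Among T cells, 97, 170, 147 and 176 Ccr4-positive cells were compared with 729, 1464, 1627 and 2501 negative cells, and 297 genes (2.84%) were higher and 431 (4.13%) lower of 10448. Dropping the library block gave 8 and 4, without 12-week-WT 177 and 276, without 12-week-DB 187 and 255, and without 21-week-WT 196 and 427. The 8 largest rises held the helper cell gene Cd4 and the regulatory cell genes Foxp3 and Ctla4, which are also on the marker lists of alpha-beta and regulatory T cells. Tnfrsf4, which encodes the costimulatory receptor OX40, was at 104, 163, 216 and 281 CPM against 33.8, 35.8, 57.2 and 77.2 CPM (1.92 ± 0.11, adjusted p = 1.89e-07). Cd5, Ctla4, Cd4, Foxp3, Cd40lg, Cd28 and Cd6 rose by 1.31 to 1.63, each above the negative cells in every library. The 8 largest falls among genes that averaged 50 CPM or more were in Fermt2 (-3.11 ± 0.18), Cd7 (-2.35), Spry2 (-2.30), Klrd1, an NK receptor chain (-2.14), Trmt61b (-2.06), Ctsw, a protease gene of cytotoxic cells (-1.87), the chemokine gene Ccl5 (-1.84) and Sytl3 (-1.48). Fermt2 and Cd7 are markers of the epidermal gamma-delta T cell gate.

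Ccr4 itself was unevenly spread over T cell subsets, so the comparison was repeated in fewer of them. Within alpha-beta and regulatory T cells alone, a restriction chosen after seeing the data, 25 genes were higher and 68 lower, and 55 of them were also among the 728 called in all T cells. There Foxp3 (0.17), Cd4 (0.34) and Ctla4 (0.20) no longer passed, while Tnfrsf4 did (0.60, adjusted p = 0.00465). Ccl5 (-2.89, adjusted p = 1.18e-06), Ctsw (-2.03, adjusted p = 5.57e-06) and Klrd1 (-2.0, adjusted p = 1.73e-05) were still lower. Among the homing genes, Itga4, S1pr1 and Ccr8 were higher and Cxcr6 was lower in all T cells, and the other skin receptor Ccr10 did not pass (-0.40, adjusted p = 0.580). Itga4 lost its call without 12-week-WT or 12-week-DB (0.43 to 0.69, adjusted p = 0.0580 to 0.137) and Ccr8 without 12-week-DB or 21-week-DB (0.66 to 0.85, adjusted p = 0.101 to 0.246). Ccr7 was higher in Ccr4-positive T cells (0.73 ± 0.20, adjusted p = 0.0341), in 3 of 4 libraries, and not without 12-week-DB or 21-week-DB (0.51 to 0.60, adjusted p = 0.182 to 0.222), while within alpha-beta and regulatory T cells it was at -0.19 (adjusted p = 0.885). Ccl17 did not differ past the test (0.82 ± 0.69, adjusted p = 0.602).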

How the data were processed

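Gene counts of 4 single-cell libraries, 1 per genotype and age, were analysed. The authors aligned 10x Genomics 3' reads to mm10 with Cell Ranger (5.0.0 per the labels; the file headers of both 21-week libraries name a later release) and deposited matrices of unnormalized UMI counts per gene and barcode, with no removal of ambient RNA. From these counts, barcodes of 200 genes or more and 10% mitochondrial UMIs or fewer were kept (5271, 6552, 7270 and 8707 barcodes; 46435961, 55518358, 67723605 and 54431712 UMIs). Classes were gated on markers (cDC2: at least 4 of 8; mature dendritic: at least 3 of 8 with Fscn1; macrophage: at least 4 of 9 and 10 C1q UMIs per 10000; T cells: at least 2 Cd3d, Cd3e or Cd3g UMIs), and barcodes with markers of 2 lineages were left out of the classes. No other doublets were removed in the values reported. A barcode that passed a dendritic gate and also the macrophage gate was counted as a macrophage.

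Levels are summed UMIs per 1000000, with exact Poisson intervals, and shares carry Clopper-Pearson intervals. A UMI count of 0 was given a floor of 3 counts. Clusters came from scanpy 1.11.5 (2000 variable genes without the members, 20 components, resolution 1.5). A ratio was called at 2-fold with at least 50 UMIs in both sums together. Positive and negative cells were summed per library and compared with edgeR 4.0.16 (R 4.3.3; quasi-likelihood test, filterByExpr, TMM, library as block, Benjamini-Hochberg adjusted p under 0.05), and DESeq2 1.42.0 was an alternative. The comparison was tested on simulated data. Of genes simulated with a log2 change of 1 in the Ccl17 comparison (10302 genes), 88.5% were recovered, with 77.3% for Ccr7 and 77% for Ccr4. False calls were 4.74%, 6.04% and 2.31% of the calls in these comparisons. The simulated sums held no difference between libraries, so the simulation does not test the use of the library as a block. The library is a block because both cell groups came from the same mice and droplets, and the p-values measure the spread between 4 libraries that differ in genotype and age.

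Named genes were the members, 5 gene lists and, in each comparison, the 8 largest rises and 8 largest falls among the called genes that averaged 50 CPM or more. The members and lists were chosen with earlier results of these data known. Likeness used log2(CPM + 10) of sums with at least 50 cells. A result for 1 gene of the lists is not reported here.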

Additional observations from a re-analysis of the deposited data

Results flagged for a closer look

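In 9 of 35 pairs of a member and a class, the DB/WT ratio lay on opposite sides of 0 at 12 and 21 weeks with both counting intervals away from 0. The share of all genes that meet this rule was not computed, so the count is a description and not a result about the members. The pairs also overlap, since the cDC2 gate is part of the dendritic cells. Each age had 1 library per genotype, so the difference between the ages was not tested. In dendritic cells, Ccl17 was at -1.83 and 1.75 on the log2 scale and Ccl22 at -0.44 and 0.26, and the cDC2 gate among them gave -2.09 and 1.75 for Ccl17 and -2.98 and 0.51 for Ccl22. Mature dendritic cells, of which 21-week-DB held 8, went the other way, with Ccl22 at 0.63 and -0.94 and Ccr7 at 1.30 and -0.85, but their cells lay in different clusters, and those in cluster 11 held 3635 and 3684 CPM of Ccl22 at 12 weeks, nearly equal. Small classes added Ccl22 in cDC1 at -2.13 and 2.32, on 7 cells in 21-week-DB, and Ccl17 in Langerhans-like cells at -3.09 and 0.82. The T cells outside the named subsets had Ccr7 at 1.13 and -0.53.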

How the results depend on the processing

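Of 372 recomputed log2 ratios between libraries, 261 moved by less than the counting error, 98 moved further and 13 reversed. Alternatives that left out shared barcodes, clusters at least 80% from 1 library, mature cells or T cell subsets were chosen after seeing the data. With classes taken from clusters, Ccl17 in dendritic cells was at -1.04 and 1.55 at 12 and 21 weeks, Ccl22 at -0.93 and -0.15 (reversed at 21 weeks) and Ccr7 at 0.08 and -0.26 (reversed at 21 weeks). Other 21-week values of Ccl17 there were 1.86 (at most 5% mitochondrial UMIs), 1.84 (highest Scrublet scores removed), 1.67 (TMM) and 1.59 (without clusters mostly from 1 library). At most 5% mitochondrial UMIs gave -0.14 and 0.61 for Ccl22 in dendritic cells. Without clusters mostly from 1 library, at 21 weeks, Ccl22 in dendritic cells was at 0.94, Ccr7 reversed to -0.50, Ccr4 in T cells was at 1.09, Ccl22 in the cDC2 gate reversed to -0.81 and Ccr7 in T cells reversed to 0.25, and from 12 to 21 weeks in DB Ccl17 in macrophages (-0.46), Ccr7 in T cells (0.44) and Ccr4 in T cells (0.28) reversed. Clusters also reversed Ccl17 in macrophages (1.10) and Ccl22 in the cDC2 gate (-0.31) at 21 weeks and Ccl22 in dendritic cells between ages in WT (-0.25). Subtracting the NK level reversed Ccl17 in macrophages between ages in DB (-0.76), and class weights reversed Ccl17 in all kept barcodes at 21 weeks (1.34). The causes were not tested.

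For Ccl17-positive cells, DESeq2 gave 225 higher and 166 lower genes, no filter 778 and 652, thinned cells 108 and 83, and no library block, which drops the pairing of both cell groups within a library (no replicate block), 2 and 3. For Ccr7-positive cells, no block gave 409 and 101, thinned cells 299 and 130, and the lower genes were 266 by DESeq2, 836 without a filter and 255 without clusters mostly from 1 library. For Ccr4-positive cells, no block gave 8 and 4, at least 2 UMIs 153 and 211, thinned cells 85 and 144, alpha-beta and regulatory T cells 25 and 68, and no filter 839 lower. Leaving out 1 library at a time gave 56 to 359 higher and 41 to 240 lower genes for Ccl17, 688 to 1004 and 242 to 411 for Ccr7, and 177 to 204 and 255 to 427 for Ccr4. Of 651 values of named genes 586 kept their call and direction. Reversed were Ccr7 in Ccl17-positive cells without 21-week-WT (-0.34; range -0.34 to 0.47 with each library left out), Ccr7 in Ccr4-positive alpha-beta and regulatory T cells (-0.19), and Ccl17 in Ccr4-positive cells by DESeq2 (-0.19), without 21-week-DB (-1.27; range -1.27 to 1.44), at 2 UMIs (-2.54) and with the highest Scrublet scores removed (-0.98).

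Ratios between conditions rest on 1 pooled library each, so the spread between mice is unknown. Ccr4 rested on 130 to 284 UMIs in T cells, and the mature dendritic and cDC1 values of 21-week-DB on 8 and 7 cells.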

Other observations

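Tslp, the gene of an epithelial cytokine that acts on dendritic cells, was at 9.11, 6.16, 2.91 and 3.67 CPM over all kept barcodes, in the order of libraries used above. In alpha-beta and in regulatory T cells, Ccr4 was higher in both 12-week libraries than in both 21-week libraries, at 50.2 and 68.6 against 29.8 and 40.5 CPM and at 75.2 and 74.0 against 52.3 and 42.6 CPM. The regulatory values rested on 24, 45, 49 and 59 UMIs. In cluster 2, led by Ctla4 and Tnfrsf4, WT was lower at 12 weeks (37.5 CPM) than at 21 weeks (48.5 CPM), and DB was at 77.9 and 75.8 CPM. In dendritic cells, Il12b was at 0.346, 3.08, 6.02 and 62.3 CPM, on 4, 27, 112 and 253 UMIs, higher in DB than in WT at both ages. In cluster 25, whose 243 cells were cycling, Ccl17 was at 701, 339, 252 and 52.8 CPM, the last on 5 UMIs in 4 cells.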
